A study of Mus musculus with 15 samples.

Results

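Keratin and keratin-associated genes were described across the chromatin and RNA libraries of male TT2 mouse embryonic stem cells. Members were all gene symbols that begin with Krt and a digit or with Krtap, which gave 104 of the 22035 genes in the gene table. By standard nomenclature they comprised 5 simple epithelial keratins, 22 stratified epithelial keratins, 8 hair root sheath keratins, 15 hair shaft keratins, 52 keratin-associated proteins and 2 other keratins (Krt222 and Krt72-ps). Classes followed the listed symbols. In the later RefSeq, Krt72-ps carries the symbol Krt72, a root sheath keratin, but it was kept among the other keratins. A start-site window for H3K4me3 was matched for 92 members. Of 98085 randomly drawn 2 kb bins, 31 touched the span of a member, and these bins covered 22 members.

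The TT2 line is wild type, of mixed C57BL/6 and CBA background, and comes from the inner cell mass of the blastocyst. Every library came from this 1 untreated line, so no library was made from skin, hair or another epithelial tissue. Native chromatin immunoprecipitation was done from sorted cells with antibodies to H3K9me3 (1000000, 100000 and 10000 cells with 1 library each, and 1000 cells with 3 libraries), H3K27me3 (100000, 10000 and 1000 cells), H3K4me3 (100000, 10000 and 5000 cells) and all forms of histone H3 (panH3, 1000 cells, 2 libraries). RNA depleted of ribosomal RNA was sequenced from 1000 cells in 1 library. Nothing in the labels tells if same-input libraries were grown as separate cultures. The p-values therefore reflect spread between libraries that may be technical.

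Keratins are the intermediate filament proteins of epithelial cells. A type I (acidic) keratin pairs with a type II (basic) keratin to build the filament. Krt8 and Krt18 form the pair of simple, single-layered epithelia and are the first keratins of the embryo, in the trophectoderm. Krt5 and Krt14 mark the basal layer of stratified epithelia, Krt1 and Krt10 its upper layers, and hair keratins are cross-linked by keratin-associated proteins in the hair shaft. H3K4me3 marks active or poised promoters, H3K27me3 is the mark of Polycomb repressive complexes, and H3K9me3 is the mark of constitutive heterochromatin.

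The members lay in 5 clusters when gaps of up to 500 kb were joined (mm9). The cluster on chromosome 11 (99094409 to 100131184) held 48 members: type I keratins, with 21 keratin-associated genes among them. The cluster on chromosome 15 (101180001 to 101862456) held 25 members: the type II keratins and the type I gene Krt18, which stands beside its partner Krt8. The other clusters held only keratin-associated genes: 22 on chromosome 16, 5 on chromosome 7 and 4 on chromosome 10.

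The promoters of 6 members are shown because these genes span the range of the family: the simple epithelial pair and Krt7, the member with the most RNA (Krt42), a silent hair keratin (Krt31), and the keratin-associated gene with the highest H3K27me3 at 100000 cells (Krtap17-1). They were chosen after their values were seen. Each run covers 300 bases around the start given by RefSeq on GRCm38.p6, most of them upstream. This is a later build than the mm9 of the libraries. It is written 5′ to 3′ on the gene's strand, and capitals mark CpG dinucleotides.
Krt8, chr15:102004293-102004592, minus strand: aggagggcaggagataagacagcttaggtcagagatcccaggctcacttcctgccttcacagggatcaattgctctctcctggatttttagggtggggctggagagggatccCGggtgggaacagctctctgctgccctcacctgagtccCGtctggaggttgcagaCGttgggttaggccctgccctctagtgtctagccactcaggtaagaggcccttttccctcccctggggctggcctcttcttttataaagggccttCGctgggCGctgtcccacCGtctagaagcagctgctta
Krt18, chr15:102027966-102028265, plus strand: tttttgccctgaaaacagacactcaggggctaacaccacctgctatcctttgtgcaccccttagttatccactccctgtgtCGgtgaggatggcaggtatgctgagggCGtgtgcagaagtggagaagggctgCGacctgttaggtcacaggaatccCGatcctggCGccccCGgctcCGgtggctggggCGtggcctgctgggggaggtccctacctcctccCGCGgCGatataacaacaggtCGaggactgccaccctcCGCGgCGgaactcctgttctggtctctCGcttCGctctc
Krt7, chr15:101412153-101412452, plus strand: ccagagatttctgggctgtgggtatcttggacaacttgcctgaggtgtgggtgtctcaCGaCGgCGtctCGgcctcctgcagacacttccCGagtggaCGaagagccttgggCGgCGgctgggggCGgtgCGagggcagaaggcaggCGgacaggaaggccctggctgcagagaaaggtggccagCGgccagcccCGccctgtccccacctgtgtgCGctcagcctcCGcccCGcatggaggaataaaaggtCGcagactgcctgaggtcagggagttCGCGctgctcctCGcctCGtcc
Krt42, chr11:100269902-100270201, minus strand: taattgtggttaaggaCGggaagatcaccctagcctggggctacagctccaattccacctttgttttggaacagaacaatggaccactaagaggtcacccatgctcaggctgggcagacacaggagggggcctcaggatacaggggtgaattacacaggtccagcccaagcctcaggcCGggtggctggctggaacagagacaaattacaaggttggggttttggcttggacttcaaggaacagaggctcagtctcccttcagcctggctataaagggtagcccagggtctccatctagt
Krt31, chr11:100050502-100050801, minus strand: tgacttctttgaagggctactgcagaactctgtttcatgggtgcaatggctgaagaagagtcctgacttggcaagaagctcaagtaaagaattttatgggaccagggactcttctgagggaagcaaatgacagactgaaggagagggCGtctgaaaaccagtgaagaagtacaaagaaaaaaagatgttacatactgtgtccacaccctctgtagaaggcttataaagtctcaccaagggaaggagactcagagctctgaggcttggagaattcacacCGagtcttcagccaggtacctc
Krtap17-1, chr11:99993945-99994244, minus strand: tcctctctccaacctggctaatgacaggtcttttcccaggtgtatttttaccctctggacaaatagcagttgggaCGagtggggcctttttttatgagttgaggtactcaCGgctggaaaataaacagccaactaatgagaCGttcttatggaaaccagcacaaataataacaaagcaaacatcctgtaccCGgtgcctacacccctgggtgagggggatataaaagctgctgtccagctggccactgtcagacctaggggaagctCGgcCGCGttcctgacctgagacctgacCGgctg

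Keratin promoters were poor in CpG and often held a TATA box sequence. RefSeq promoters were found for 81 members, with a median of 3 CpG dinucleotides in 300 bases against 7 over all 27025 promoters. Krt7 had the most (21) and Krt18 the next most (17). These were the 2 members whose promoter had a GC content of at least 50% and a CpG ratio (observed over expected) of at least 0.6, a state found in 34.1% of all promoters. Krt8 had 6 CpG dinucleotides and Krt42 and Krt31 had 2 each. The letters TATAAA, on either strand, were in 56 of 81 member promoters (69.1%) against 14.2% of all promoters. By class they were in 37 of 46 keratin-associated promoters, 6 of 7 hair root sheath promoters, 6 of 9 hair shaft promoters and 4 of 14 stratified epithelial promoters. They were also in 2 of 4 simple epithelial promoters (Krt8 and Krt20) and in that of Krt72-ps. The Sp1-type letters GGGCGG were in 2 member promoters (2.47%) against 35.9% of all, and the AP-1 letters TGAGTCA in 5 (6.17%) against 5.17%, each on either strand. Across all 16030 genes matched by symbol, CpG count and H3K4me3 at 100000 cells had a Spearman correlation of 0.75. Across the 72 members with both values it was 0.25, where the points share 1 library and its depth, and within the 35 Krt and 37 Krtap members it was 0.03 and -0.16.

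RNA was low across the family, and the simple epithelial pair Krt8 and Krt18 was among the few members with a signal. RNA values are reads scaled for exon length and library size (RPKM) in the single library, whose depth is unknown, so they carry no interval. At least 1 RPKM was reached by 4 of 104 members, against 50% of all genes. Krt42, a stratified epithelial type I keratin, had the highest value at 4.88 RPKM. Krt8 had 1.80 RPKM and Krt18 had 1.72 RPKM, so the partners of the filament were at nearly the same level. Krt10, a keratin of the upper epidermis, had 1.57 RPKM, while its partner Krt1 had 0.02 RPKM. Krt17, a keratin of hair follicles and wounded skin, had 0.99 RPKM, and its neighbour Krt16 had 0.14 RPKM. Among the other simple epithelial members, Krt19 had 0.46, Krt7 0.14 and Krt20 0.03 RPKM. With 1 library, the order among Krt8, Krt18 and Krt10 cannot be told from error.

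Most skin and hair members had no RNA signal. RNA was listed at 0 for 81 members (77.9%), against 21.0% of all genes. These included all 52 keratin-associated genes, 14 of 15 hair shaft keratins, 4 of 8 root sheath keratins and 10 of 22 stratified keratins. For Krtap4-13 the 0 was that of the row chosen by H3K27me3, and its other row had 0.08 RPKM. No simple epithelial keratin was at 0. The highest root sheath value was 0.12 RPKM (Krt28, of the inner root sheath), with Krt25 at 0.07, Krt26 at 0.02 and Krt71 at 0.01, and the 1 hair shaft keratin above 0 was Krt84 at 0.03 RPKM. Krt5 was listed at 0 and Krt14 at 0.02 RPKM. No member with at least 0.1 RPKM overlapped another gene of the table.

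In bulk samples, fewer cells of a type and less RNA per cell cannot be told apart. All 10 embryonic stem cell markers had at least 15.01 RPKM (Klf4), Pou5f1 81.4 among them. At least 1 RPKM was reached by 50% of all genes. Of the 10 trophoblast markers, where Krt8 and Krt18 are listed too, 4 did: Tead4 (5.27), Tcfap2c (4.26) and the keratins Krt8 and Krt18 themselves. Cdx2 was at 0.05 and Elf5 at 0.09 RPKM. Of the 10 keratinocyte markers 2 reached 1 RPKM, Krt10 and Sfn (11.4), while Trp63, a master regulator of stratified epithelia, had 0.13 RPKM. Of the 10 fibroblast markers only Thy1 reached 1 RPKM (1.79), and Col3a1, Postn, Lum, Dcn and Fap were listed at 0. Of the 10 primitive endoderm markers 2 reached 1 RPKM, Lama1 (3.83) and Dab2 (1.11). The summed RNA was 15.1 RPKM for the trophoblast list, 13.5 for the keratinocyte list, 6.87 for the primitive endoderm list and 2.54 for the fibroblast list. The first 2 sums include the keratins on those lists, so they are not separate from the keratin values. Sfn alone gave 11.4 RPKM of the keratinocyte sum, and the trophoblast sum was led by Tead4 and Tcfap2c. The part of cells of these types in the keratin values was not tested.

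H3K4me3 was low at keratin start sites, and its highest values at 100000 and 10000 cells were at simple epithelial genes. The value is RPKM in a 1000 bp window, and for a symbol with several windows the one with the highest mean stands. It lay over 1 kb from the listed start for 4 members (Krt15, Krt33a, Krt80 and Krtap15). With the window nearest to the start, found within 1 kb for 91 members, again 0 reached 3 RPKM at 100000 cells. Libraries differ in precision because 1 read is worth 0.06 RPKM at 100000 cells, 0.94 at 10000 and 0.54 at 5000. No member of 92 reached 3 RPKM at 100000 cells, against 35.3% of all symbols. At 10000 cells 1 member did (50.9% of all symbols) and at 5000 cells 1 member did (45.2%). Both were Krt19, a type I keratin of ducts and simple epithelia, with 2.35, 8.44 and 4.85 RPKM at 100000, 10000 and 5000 cells. These rested on 39, 9 and 9 reads, with 95% exact Poisson intervals of 1.67 to 3.21, 3.86 to 16.02 and 2.22 to 9.20 RPKM, which cover counting error only.

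At 100000 cells Krt18 was next. Its values were 2.29, 2.81 and 1.08 RPKM (38, 3 and 2 reads), and at 5000 cells Krt2 (2.69), Krt42 and Krtap9-5 (2.15 each) and Krt77 and Krtap17-1 (1.62 each) stood above it. Krt8 had 1.39, 2.81 and 1.62 RPKM (23, 3 and 3 reads). At 100000 cells the intervals of Krt18 (1.62 to 3.14 RPKM) and Krt8 (0.88 to 2.08 RPKM) overlapped. The values of Krt7, 0.66, 2.81 and 0.54 RPKM, were within those of the skin genes at 100000 and 5000 cells. Krt20, of intestinal epithelium, had 0.54 RPKM at 100000 cells and no read at 10000 or 5000 cells.

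The medians of the 5 simple epithelial members were 1.39, 2.81 and 1.08 RPKM at 100000, 10000 and 5000 cells. The 87 other members had medians of 0.60, 0 and 0.54 RPKM, and all symbols had 1.39, 3.75 and 2.15 RPKM. Among the skin and hair members, the highest values at 100000 cells in the windows used were 1.51 RPKM at Krt75, a companion layer keratin, and 1.39 at Krt14. Krt17 (1.32) and the hair keratin Krt81 (1.26) came next. In the other places of each class stood the shaft keratins Krt83 (1.08), Krt86 (1.08) and Krt32 (0.96), the root sheath keratins Krt28 (0.96), Krt25 (0.66) and Krt26 (0.66), and Krt16 and Krt24 (1.02 each). The highest keratin-associated genes were Krtap4-16 (0.96), Krtap5-3 (0.90) and Krtap17-1 (0.78), with Krtap4-7, Krtap5-5 and Krtap9-5 at 0.72 RPKM. Krt42 and Krt10, both with more than 1 RPKM of RNA, had only 1.08 and 0.54 RPKM of H3K4me3 at 100000 cells. Their intervals were 0.64 to 1.71 and 0.25 to 1.03 RPKM, below the median of all symbols for Krt10. The difference between simple epithelial and other members was not tested, as each cell number had 1 library.

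**Figure D1:**
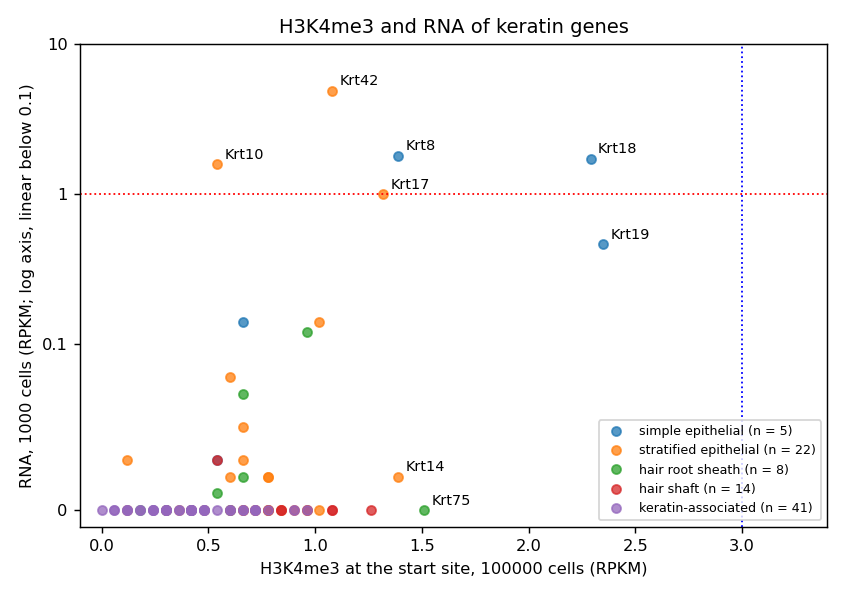
H3K4me3 at the start site at 100000 cells (x axis, RPKM) against RNA of 1000 cells (y axis, RPKM, log axis that is linear below 0.1) for the keratin genes with both values, coloured by class. Dotted lines mark 1 RPKM of RNA and 3 RPKM of H3K4me3. Krt8, Krt10, Krt18 and Krt42 lie above 1 RPKM of RNA, Krt18 and Krt19 have the most H3K4me3, and all keratin-associated genes lie at 0 RNA.

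H3K27me3 at keratin start sites was above the median of all genes but seldom high, and the 5 larger classes overlapped. The value is RPKM in the 1 kb on each side of the start. The median of the 104 members was 0.55, 0.635 and 0.555 RPKM at 100000, 10000 and 1000 cells, against 0.28, 0.28 and 0.31 RPKM over all genes. Over the 6811 genes with less than 0.1 RPKM of RNA the medians were 0.45, 0.45 and 0.44 RPKM, so silent genes as a whole also stood above all genes. At least 1 RPKM was reached by 8 members at 100000 cells (9.55% of all genes), 13 at 10000 cells (11%) and 7 at 1000 cells (5.24%). These shares of 104 (7.69%, 12.5% and 6.73%) were near those of all genes, and no member reached 1 RPKM in all 3 libraries. Among the genes with less than 0.1 RPKM of RNA the shares were higher, at 13.1%, 14.8% and 7.88%, and 450 of 6811 reached it in all 3 libraries.

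Simple epithelial members had medians of 0.68, 0.64 and 0.61 RPKM, and the 23 hair keratins had 0.63, 0.73 and 0.69 RPKM. Stratified epithelial members had the highest class medians, 0.74, 0.88 and 0.73 RPKM. Keratin-associated genes had the lowest of the 5 larger classes, 0.455, 0.47 and 0.46 RPKM. Each of these 5 classes overlapped each other one in every library. In the simple epithelial class, Krt7 had 0.94, 1.14 and 0.96 RPKM, Krt18 0.81, 0.64 and 0.51, Krt20 0.68, 0.54 and 0.72, Krt8 0.47, 0.48 and 0.60, and Krt19 0.42, 0.70 and 0.61. Krt7 was the highest of the 5 in each library. At 100000 cells the intervals of Krt8 (0.27 to 0.72 RPKM) and Krt18 (0.56 to 1.15 RPKM) overlapped.

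The highest start sites were those of skin and hair genes. Krtap17-1 had 1.56, 1.58 and 0.95 RPKM, on 61, 48 and 25 reads. Krt24, a type I keratin of stratified epithelia, had 1.48, 1.69 and 0.76 RPKM. Krt14 had 1.31, 0.98 and 1.03 RPKM, and Krt16 had 1.27, 0.97 and 1.35 RPKM. Among hair keratins the highest at 100000 cells were Krt31 of the shaft (1.18, 0.85 and 0.86 RPKM) and Krt26 of the inner root sheath (1.16, 0.96 and 1.16 RPKM). At 100000 cells they were followed in the shaft by Krt34 (0.97), Krt36 (0.93) and Krt33a (0.85), and in the root sheath by Krt27 (0.94), Krt73 (0.89) and Krt28 (0.64). Krt76, of the palate, had 1.05 RPKM, and the keratin-associated genes Krtap31-2 and Krtap5-2 had 1.07 and 0.95 RPKM. Krtap5-4 had 0.88, 1.80 and 0.95 RPKM, and its value at 10000 cells was the highest of any member in any library.

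The lowest values included expressed members. Krt10 had the lowest H3K27me3 of all members at 100000 cells, with 0.11, 0.20 and 0.21 RPKM on 4, 6 and 5 reads. Krt42 had 0.22, 0.54 and 0.42 RPKM. Krtap20-2, which had no RNA signal, had 0.12, 0.20 and 0.61 RPKM, so low H3K27me3 was not limited to expressed members. The lowest hair keratins were Krt71 of the inner root sheath at 0.23, 0.68 and 0.27 RPKM and Krt86 of the shaft at 0.37, 0.47 and 0.29 RPKM.

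Values also differed between chromosomes. Type I keratins, nearly all on chromosome 11, had a median of 0.775 RPKM at 100000 cells, and type II keratins, all on chromosome 15, had 0.565 RPKM. All genes of chromosome 11 had a median of 0.38 RPKM and those of chromosome 15 had 0.27 RPKM. After each gene was scaled by its chromosome's median the types stood at 0.571 and 0.586 RPKM. Keratin type and chromosome nearly coincide, with 96.4% of type I keratins on chromosome 11, so they cannot be told apart. In the 2 kb bins, the chromosome 11 median was 1.31 to 1.64 times that of the autosomes other than 1, 8 and 11 in every library, 1.5 and 1.52 times in panH3. Keratin-associated genes also differed by place at 100000 cells: the median was 0.84 RPKM for 5 genes on chromosome 7, 0.58 for 21 on chromosome 11, 0.355 for 22 on chromosome 16 and 0.27 for 4 on chromosome 10.

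**Figure D2:**
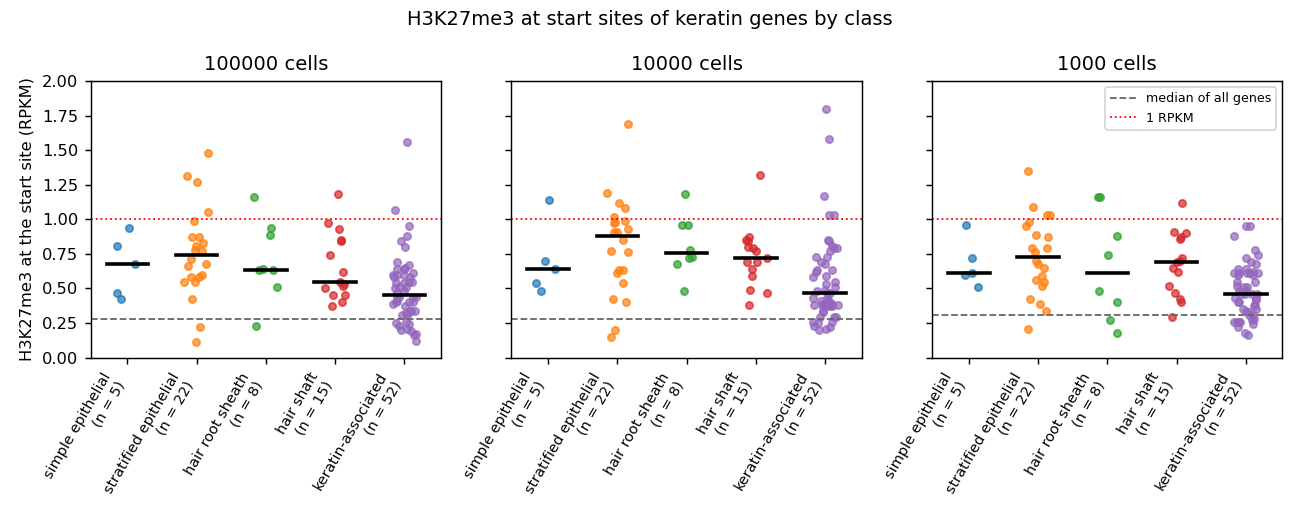
H3K27me3 at the start site (y axis, RPKM) of each keratin gene by class (x axis), with 1 panel per library. Points are genes, black bars are class medians, the dashed line is the median of all genes and the dotted line marks 1 RPKM. All class medians lie above that of all genes and below 1 RPKM, and the 5 larger classes overlap.

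The H3K27me3 order of the members was kept in part between cell numbers. The Spearman correlation across members was 0.77 between 100000 and 10000 cells and 0.64 between 100000 and 1000 cells, against 0.88 and 0.79 across all genes. These points share 2 libraries and a low range of values. Of 68 members with a mean of at least 0.5 RPKM, 8 were lower at 1000 than at 100000 cells past 1.5-fold (28.2% of such genes overall) and 2 were higher (4.38%). The median log2 difference of these members was 0.02, against -0.30 over the 5884 genes compared. The lowest was Krt77, an epidermal type II keratin, at -1.14 on the log2(RPKM + 0.1) scale (0.87 to 0.34 RPKM). The 2 higher members were Krt75 (0.63 to 1.16 RPKM) and Krt84 (0.50 to 0.87 RPKM). All 5 simple epithelial members stayed within 1.5-fold on the log2(RPKM + 0.1) scale. With 1 library per cell number there is no replicate check of these differences.

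Single genes of other lists in the same cells had far more RNA than any keratin. In H3K27me3 the distance was smaller, with a keratin maximum of 1.56 RPKM at 100000 cells. At 1000 cells the keratin maximum was 1.35 RPKM. There it was 1.24 for epithelial regulators, 1.23 for cell junction and envelope genes and 1.38 for other intermediate filament genes. Of 25 epithelial regulators, 13 (52%) reached 1 RPKM of RNA (50% of all genes), led by Klf5 (44.2 RPKM), Cux1 (23.2) and Klf4 (15.01), and 10 (40%) reached 1 RPKM of H3K27me3 at 100000 cells (9.55% of all genes), led by Dlx3 (2.40), Sox9 (2.25) and Msx2 (2.07). Of 24 cell junction and envelope genes, 10 (41.7%) reached 1 RPKM of RNA, led by the adhesion gene Cdh1 (31.7), Dst (29.9) and Epcam (17.2). In this list 4 (16.7%) reached 1 RPKM of H3K27me3, with Pkp1 (1.69), Cldn7 (1.67) and Lor (1.33) highest. Of 15 other intermediate filament genes, 12 (80%) reached 1 RPKM of RNA, among them the lamin Lmnb1 (49.2), Nefh (23.1) and Vim (13.5). There 6 (40%) reached 1 RPKM of H3K27me3, with Gfap (2.03), Nefl (1.83) and Des (1.51) highest.

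Genes of the late envelope and hair matrix were nearer to the keratins. None of these 12 reached 1 RPKM of RNA, with Padi3 (0.92), Hrnr (0.90) and Tchh (0.84) highest, and 1 (8.33%) reached 1 RPKM of H3K27me3 (Tchh, 2.58). The next highest there were Lce3a (0.66) and Sprr1a (0.58). By distance over RNA and the 3 H3K27me3 values on the log2 scale, the genes nearest to Krt8 were Gstm4, Slc3a1, 1810063B07Rik, 4930578N16Rik and Tle6. Those nearest to Krt18 were Sorbs2, Kif6, Srgap3, Klhdc5 and Ero1lb.

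H3K9me3 was compared with panH3 at 1000 cells in the bins that touch a member, to ask where heterochromatin marking exceeds nucleosome density. By limma, with Benjamini-Hochberg adjustment at 0.05 over all bins tested, H3K9me3 was higher in 8 of 31 member bins (15.2% of all bins) and lower in 3 (24.7%). When each library was centred on its own median, the split over all bins went from 14224 higher and 23158 lower to 20312 and 18564, the median log2 difference from -0.10 to 0.08, and the member bins to 10 higher and 3 lower. Among bins that touch any gene, 7.19% were higher and 45.6% lower. The 8 higher bins were 6 of the 11 on chromosome 11, 1 of the 17 on chromosome 15 and the bin at Krtap12-1 on chromosome 10. All chromosome 11 bins that touch a gene were higher in 5.12% of cases. The count of higher bins fell to 4 (12.9%) without either panH3 library, where 10.4% and 10.5% of all bins were higher. It fell to 5 (16.1%) without H3K9me3 library c, where 13.9% of all bins were higher. With the library letters as a block it was also 5 (with 4 lower), against 14.4% of all bins, although the letters are not known to pair libraries. In these settings the member share was near that of all bins.

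Within the chromosome 11 cluster, the bins over Krt9, Krt23, Krt32 and Krt39 carried the higher H3K9me3. In the Krt9 bin (mm9 chr11:100052001-100054000, within the gene span; Krt9 is a keratin of palm and sole skin) H3K9me3 was 0.85, 1.17 and 1.38 RPKM and panH3 was 0.63 and 0.49. All 3 H3K9me3 libraries lay above both panH3 libraries, with a log2 difference of 0.89 ± 0.19 (SE) and a limma adjusted p of 0.00047. In the Krt23 bin at 99342001-99344000, H3K9me3 was 0.71, 0.70 and 1.07 RPKM and panH3 was 0.48 and 0.45, a log2 difference of 0.69 ± 0.20. The adjacent Krt23 bin (99340001) had 1.31, 0.84 and 0.96 against 0.59 and 0.71 RPKM, also without overlap, a log2 difference of 0.58 ± 0.19. Over 12 alternatives the calls at Krt9, Krtap12-1 and the Krt85 span described next were never lost. That at 99342001 was lost in 3 (without H3K9me3 library c, without panH3 library b and with the block), and that at 99340001 in 1 (without panH3 library a). The Krt39 call was lost in 4, among them without either panH3 library, and those of the Krt32 bins in 4 and 6. At Krtap12-1 (chr10:77182001-77184000), H3K9me3 was 0.83, 0.73 and 0.96 RPKM and panH3 0.37 and 0.42, with a log2 difference of 0.92 ± 0.19 and a limma adjusted p of 0.00034.

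The highest H3K9me3 of any member bin was at chr15:101424001-101426000. Its values were 1.97, 1.32 and 1.31 RPKM against 0.50 and 0.36 for panH3, a log2 difference of 1.61 ± 0.19 with a limma adjusted p of 2.6e-07. This bin touches only the listed span of Krt85, a hair shaft keratin. That span of 175816 bp holds 9 other genes for an exon length of 1442 bp, and the longest other member spans 20560 bp, so the bin may not belong to the gene. Without the 6 bins that touch Krt85 alone, 7 of 25 bins were higher and 3 lower.

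The bins with lower H3K9me3 were at Krt77, Krt28 and Krt18. At the 3′ end of Krt18 (chr15:101862001-101864000), H3K9me3 was 0.20, 0.31 and 0.35 RPKM and panH3 0.57 and 0.56, a log2 difference of -0.80 ± 0.24 with a limma adjusted p of 0.0076. This call was lost without either panH3 library. At Krt77 the log2 difference was -0.88 ± 0.24 and at the start of Krt28 it was -0.87 ± 0.20. The first was lost without panH3 library b and the second with centring within chromosomes. The bin in Krt7 had -0.70 ± 0.29, which did not pass (limma adjusted p = 0.053) but did in 4 of 12 alternatives, among them a pseudocount of 1 and the replicate block. The Krt8 bin (chr15:101828001-101830000, in the gene body) had 0.23, 0.30 and 0.37 RPKM of H3K9me3 against 0.40 and 0.34 for panH3, a log2 difference of -0.24 ± 0.25 that did not pass. All 3 simple epithelial bins had negative differences, as did most bins that touch any gene (median -0.50), of which 45.6% were lower; on chromosome 15 the share was 49.3%.

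H3K27me3 was then compared with H3K9me3 at the cell numbers both marks share, with cell number as a factor. H3K27me3 was the higher mark in 11 of 31 member bins (14.3% of all bins) and the lower mark in 1 (13.7%). Among bins that touch any gene, 16.6% were higher and 7.15% lower. The excess lay on chromosome 15, with 9 of 17 member bins higher, while 1 of 11 was higher on chromosome 11. The shares among all gene-touching bins of these chromosomes were 17.0% and 30.2%. Without the libraries of 10000 cells the count was 7 of 31 (22.6%), where the share of all bins also fell, to 10.1%. Without the bins that touch Krt85 alone it was 8 of 25.

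The largest differences were at a keratin-associated gene and a hair keratin. At Krtap5-4 (chr7:149488001-149490000), H3K27me3 was 1.17, 2.25 and 1.11 RPKM at 100000, 10000 and 1000 cells. H3K9me3 there was 0.32 and 0.26 RPKM at 100000 and 10000 cells and 0.43, 0.31 and 0.42 at 1000 cells, and the log2 difference was 1.80 ± 0.23 with a limma adjusted p of 1.1e-07. At the start of Krt83 (chr15:101268001-101270000), H3K27me3 was 2.24, 2.39 and 1.23 RPKM and all 5 H3K9me3 values lay between 0.30 and 0.63, a log2 difference of 1.76 ± 0.21 with a limma adjusted p of 2.2e-08. The start-site value of Krt83, whose window shares 1769 bp with this bin, was only 0.45, 0.59 and 0.62 RPKM in the gene table. The Krt71 bin likewise had 1.12, 1.27 and 0.46 RPKM against 0.23, 0.68 and 0.27 at the start site, and the Krtap5-4 values were 0.88, 1.80 and 0.95 RPKM at the start site. The Krt28 bin had 1.25, 1.34 and 0.73 RPKM against 0.64, 0.72 and 0.48. The Krt9 bin, which shares only 441 bp with the start window, had 1.91, 1.70 and 1.34 RPKM against 0.81, 0.77 and 1.09. Not every bin was the higher: at Krt34 it had 1.02, 0.85 and 0.84 RPKM against 0.97, 1.32 and 1.12. The reason for these gaps was not tested. The bin shared by Krt75 and the listed span of Krt85 (1.25 ± 0.23), that in Krt7 (1.18 ± 0.28) and a Krt85 bin (1.15 ± 0.24) came next.

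Among simple epithelial genes, Krt8 and Krt7 passed this test. In the Krt8 bin H3K27me3 was 0.46, 0.62 and 0.35 RPKM and H3K9me3 0.07, 0.11, 0.23, 0.30 and 0.37, with a log2 difference of 1.08 ± 0.29 (limma adjusted p = 0.0043). The groups overlapped at the lowest H3K27me3 value, and the call was lost without the 100000-cell or the 10000-cell libraries (limma adjusted p up to 0.077). That of Krt7 was kept in all 13 alternatives. The Krt18 bin had a log2 difference of 0.53 ± 0.27 and was not called. The only bin called with more H3K9me3 than H3K27me3 was the Krt85 bin at chr15:101424001-101426000, at -1.24 ± 0.21. The next lowest, at Krtap12-1 (-0.40 ± 0.20), Krt32 (-0.13 ± 0.20), Krtap15 (-0.01 ± 0.23) and Krt36 (0.03 ± 0.19), did not pass.

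**Figure D3:**
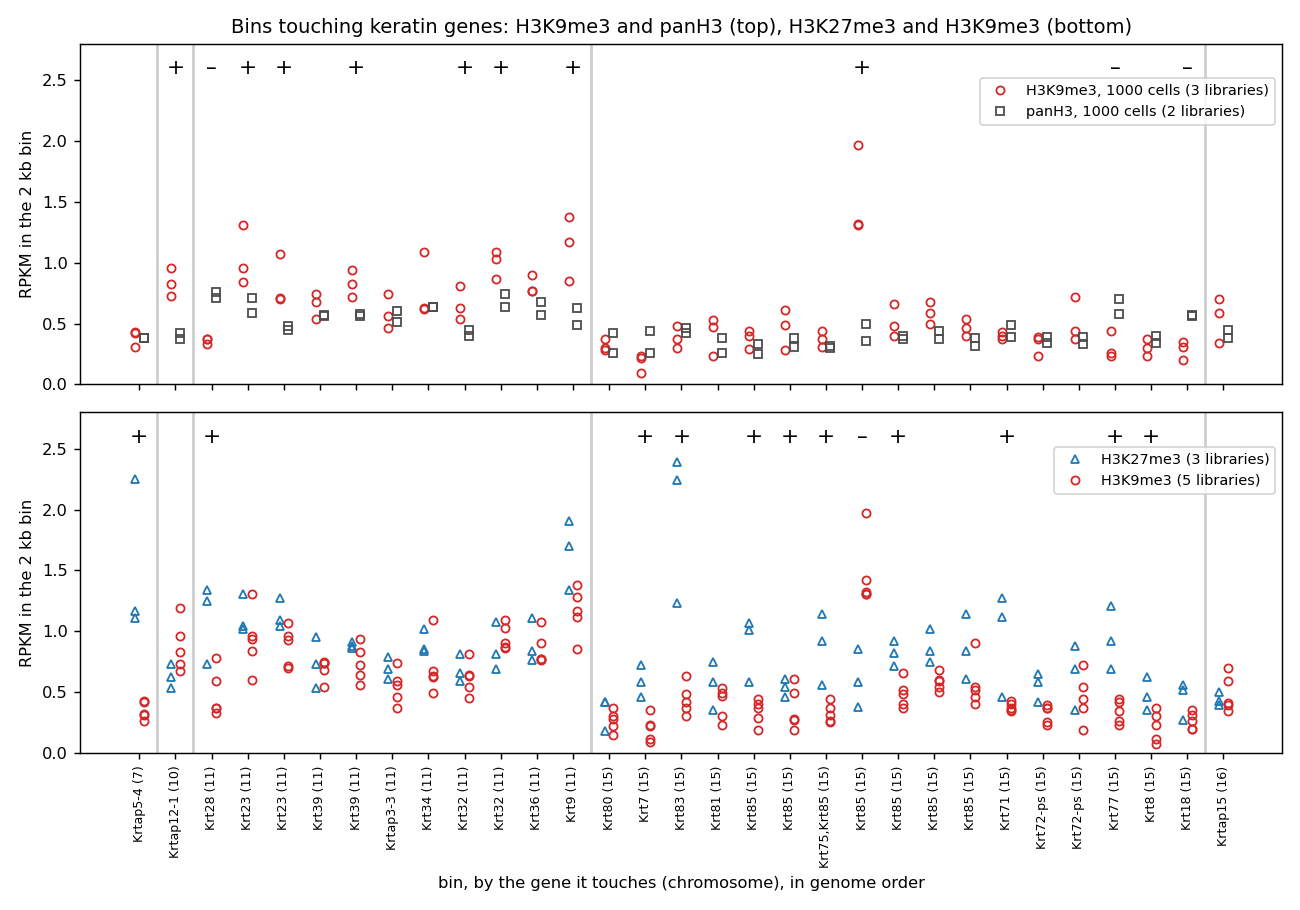
RPKM (y axis) in each of the 31 bins that touch a keratin gene (x axis, by gene and chromosome), with 1 point per library. The top panel shows H3K9me3 and panH3 at 1000 cells and the bottom panel shows H3K27me3 and H3K9me3 at shared cell numbers, with + and – above bins called higher or lower for the first-named mark. The + signs of the top panel lie mostly on chromosome 11 and those of the bottom panel mostly on chromosome 15.

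All 123 bins within the 5 clusters gave a fuller view of the same loci, and 92 of them touched no member. In the chromosome 15 cluster H3K27me3 was higher than H3K9me3 in 20 of 32 bins (62.5%) and lower in 1, against 14.3% higher and 13.7% lower over all bins, with a median log2 difference of 0.75. In the chromosome 7 cluster it was higher in 4 of 7 bins and lower in 1. In the chromosome 16 cluster of keratin-associated genes the direction was the other way, with 1 of 34 bins higher and 11 lower (32.4%) and a median of -0.29. The chromosome 11 cluster had 6 higher (12.8%) and 3 lower of 47 bins, where all chromosome 11 bins were higher in 27.6% and lower in 9.44%. The difference between clusters itself was not tested. Mean H3K27me3 per library in the chromosome 15 cluster was 0.68, 0.82 and 0.54 RPKM, and in the chromosome 16 cluster 0.33, 0.31 and 0.35 RPKM. Mean H3K9me3 at 1000 cells was 0.39 ± 0.03 RPKM (SD, n = 3) and 0.47 ± 0.03 RPKM in the same clusters, beside panH3 of 0.41 ± 0.01 and 0.36 ± 0.003 RPKM (SD, n = 2). Against panH3, H3K9me3 was higher in 12 of 47 bins (25.5%) and lower in 3 in the chromosome 11 cluster, where all bins of the chromosome were higher in 13.1%, and higher in 7 of 34 (20.6%) in the chromosome 16 cluster. In the chromosome 15 cluster it was higher in 1 of 32 bins and lower in 7, against 15.2% and 24.7% over all bins.

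**Figure D4:**
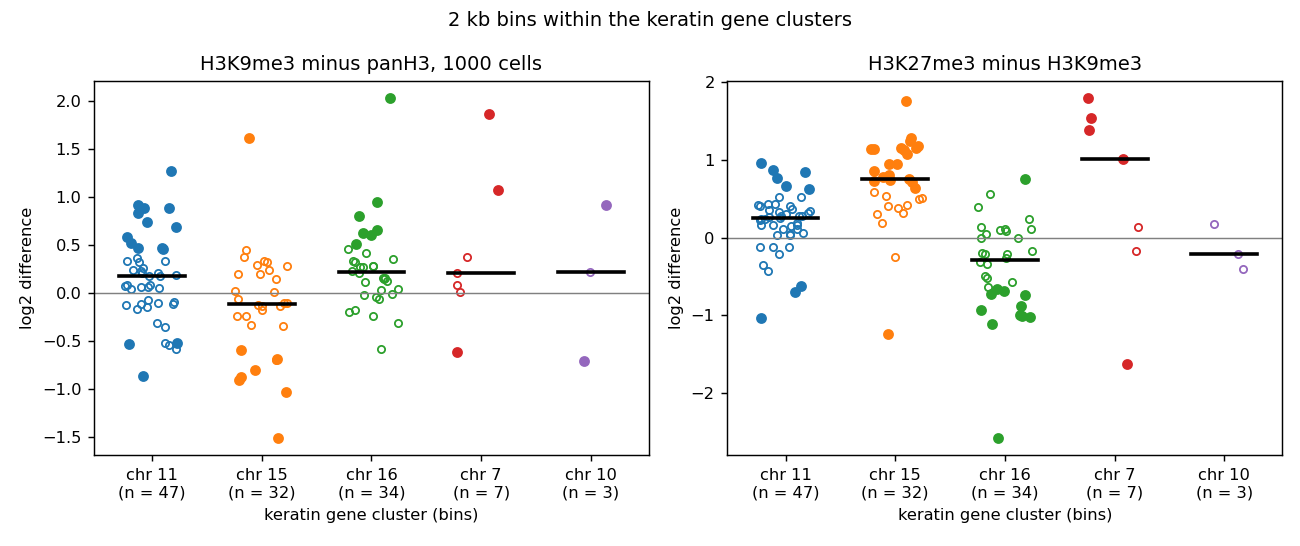
Log2 differences (y axes) in all bins of the 5 keratin gene clusters (x axis, by chromosome): H3K9me3 minus panH3 at 1000 cells on the left and H3K27me3 minus H3K9me3 on the right. Points are bins, filled where limma called them at 0.05, and black bars are medians. On the right the chromosome 15 bins lie mostly above 0 (median 0.75) and the chromosome 16 bins mostly below (median -0.29).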

How the data were processed

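The authors deposited tables of RPKM (reads scaled for length and library size), with H3K27me3 1 kb on each side of starts and RNA over exons, per the file headers. Alignment with BWA to mm9 is named in the submitters' processing notes, with no version. Filters and the use of strand are not stated. The 2 columns of other samples in the start-site table were not used. For symbols with several rows the row with the highest mean stands. The start-site table shortens hyphenated symbols, so 40 members were matched by shortened symbol and a start within 20 bp, and 12 were not matched (Krt85, Krtap1-4, Krtap4-8, Krtap4-13, Krtap5-1, Krtap6-2, Krtap10-4, Krtap10-10, Krtap12-4, Krtap14, Krtap16-10 and Krtap22-2).

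Depth, recovered from the smallest RPKM steps, was 13.4 to 45.5 M reads for H3K9me3, 13.0 to 19.7 for H3K27me3, 42.0 and 42.2 for panH3, and 16.6, 1.07 and 1.86 for H3K4me3. Bins were tested with limma 3.58.1 in R 4.3.3 (robust, with trend) on log2(RPKM + 0.1), over 93575 and 93578 bins above 0. On 200 changed simulated bins it recovered 15% of 1 log2 and 82% of 2 log2 changes for H3K9me3 against panH3, with 0 false calls. For H3K27me3 against H3K9me3 it recovered 30% and 87%, with 7 false calls. Far fewer bins were changed there than were called in the real fits, which makes the adjustment stricter. These rates therefore do not give the power of the tests reported. Promoters were credited to RefSeq by gene ID.

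Members and lists were chosen with earlier results of these data known. Named were all simple epithelial members, the 4 highest of each other class by H3K27me3, H3K4me3 and RNA (above 0) with the lowest by H3K27me3, the 5 highest and 5 lowest bins, unmatched members, the 3 highest of each other list, and the 5 genes nearest to Krt8 and Krt18. Alternatives were other pseudocounts, centring, filters, thresholds, bin definitions, weights on recovered reads, and left-out libraries.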

Additional observations from a re-analysis of the deposited data

How the results depend on the processing

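No H3K9me3 or H3K27me3 bin named above changed direction where it was called. Over their 364 alternatives, 37 calls were lost and 4 gained. Of the 96 alternatives for counts and medians, 66 stayed within 1.5-fold of the value reported or did not move. H3K9me3 was higher than panH3 in 8 member bins, and in 4 to 11 with 1 library left out (10.4% to 17.6% of all bins). Lower bins were 3, and 1 to 4 with 1 library left out. With the replicate block, 5 were higher (14.4% of all bins). Over bins in whole clusters 23 were higher and 12 lower, within 5 kb of genes 6 were lower, and for bins with their middle in a gene 1 was lower. H3K27me3 was higher than H3K9me3 in 11 bins, in 7 without 10000 cells (10.1% of all bins), in 19 within 5 kb of genes and in 31 over whole clusters. It was lower in 1, in 3 within 5 kb, in 16 over clusters and in 0 without the bins touching only Krt85, an alternative chosen after seeing the data (limma, with 0 also at an unadjusted p under 0.05 and with voom). The 8 members at 1 RPKM of H3K27me3 were 66 at 0.5 RPKM, 0 at 2 RPKM and 4 after chromosome scaling, which also moved the medians to 0.571 (type I), 0.586 (type II) and 0.395 (keratin-associated). With means over rows the last was 0.44. At 1 RPKM of H3K4me3 there were 13 members in place of 0, and at 0.1 RPKM of RNA 10 in place of 4. For 1000 against 100000 cells, both counts (8 lower, 2 higher) fell to 0 under a pseudocount of 1. At 10000 cells they were 1 and 6. Higher members were 7 with no filter and 1 with libraries scaled to 1 median. Depth limits H3K4me3 at 10000 and 5000 cells, where most keratin windows hold 0 to 3 reads.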
